A study of Mus musculus with 18 samples.

Results

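The genes described here are 8 early response transcription factors of the mouse, the Krüppel-like factors Klf2, Klf4, Klf5, Klf6, Klf9 and Klf10 and the orphan nuclear receptors Nr4a1 and Nr4a2. They were taken from the deposited count table by gene symbol, 8 of 25957 genes, and all 8 passed the filter on low counts that left 10075 genes for testing. RNA came from C2C12, an established mouse myoblast line grown with 20% fetal bovine serum, and was measured by BRB-seq, a bulk method that barcodes cDNA before pooling and reads mainly the 3′ ends of mRNAs. The 18 libraries formed 6 groups of 3. Trypsin at 0.25% was left on the washed cells at 37 °C for 30 s, for 3 min or for 30 min. In the low trypsin group it was taken off straight away and the cells then stayed at 37 °C for 3 min. The cold-active protease group was shaken with that enzyme at 4 °C for 5 min. Control cells met no enzyme and were scraped off in lysis buffer. Every group was the same cell line, and treated cells differed from control cells in washing, incubation and detachment as well as in the enzyme. Libraries carry lot numbers 1 to 3 in the labels, which are used as replicate numbers. Nothing says that lots were separate cultures, and the p-values therefore reflect library-to-library spread, which may be technical.

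Both families are switched on within minutes to hours of a stimulus in many cell types. Krüppel-like factors bind GC-rich and CACCC sequences through zinc fingers at their C-terminal ends, and some activate while others repress. NR4A receptors are unusual among nuclear receptors in that their ligand pocket is filled by bulky side chains, so that they act without a ligand and their activity depends largely on how much of them is made. Several members have a known upstream arm: Klf2 and Klf4 are induced by the kinase ERK5 through MEF2 factors in endothelial cells, Nr4a1 and Nr4a2 by cyclic AMP through CREB and its CRTC coactivators, Klf9 by the glucocorticoid receptor, and Klf10 by TGF-beta.

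Klf6 and Nr4a2 were the 2 members that passed the edgeR test over the 6 groups given below, Nr4a2 not under every setting. Nr4a1 is the paralogue of Nr4a2, so the sequences upstream of these 3 genes are shown. RefSeq promoter windows on GRCm38.p6 were found for 6 of the 8 members, Klf2, Klf4, Klf6, Klf9, Nr4a1 and Nr4a2. Each window below has 240 bases, runs 5′ to 3′ on the gene's strand and ends 10 bases before the RefSeq start. Capitals mark the letters TGACG, the half-site of the cyclic AMP response element, or CGTCA, the same letters on the other strand.
Nr4a2, chr2:57124014-57124253, minus strand: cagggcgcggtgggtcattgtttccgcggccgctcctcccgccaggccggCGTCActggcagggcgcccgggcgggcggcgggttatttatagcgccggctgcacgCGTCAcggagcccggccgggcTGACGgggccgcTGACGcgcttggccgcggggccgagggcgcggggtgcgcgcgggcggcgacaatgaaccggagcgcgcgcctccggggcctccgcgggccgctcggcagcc
Nr4a1, chr15:101266596-101266835, plus strand: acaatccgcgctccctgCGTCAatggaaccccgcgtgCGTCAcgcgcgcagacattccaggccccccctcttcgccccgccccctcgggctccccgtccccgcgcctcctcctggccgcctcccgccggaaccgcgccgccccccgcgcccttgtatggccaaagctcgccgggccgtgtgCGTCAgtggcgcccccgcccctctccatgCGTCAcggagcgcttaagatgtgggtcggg
Klf6, chr13:5861239-5861478, plus strand: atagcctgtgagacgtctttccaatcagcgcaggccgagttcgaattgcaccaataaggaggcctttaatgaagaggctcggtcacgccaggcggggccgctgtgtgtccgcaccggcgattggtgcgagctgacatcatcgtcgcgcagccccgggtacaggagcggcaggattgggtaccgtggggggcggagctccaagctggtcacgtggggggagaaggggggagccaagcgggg
The Nr4a2 and Nr4a1 windows held 4 half-sites each. Of 32851 RefSeq windows of that length, 14 (0.0426%) held at least 4 and 16.9% held at least 1, with overlapping matches counted once and no adjustment for base composition. With every overlapping match counted, 0.122% held at least 4. The Nr4a2 window was 79.6% G or C, the Nr4a1 window 74.2% and the Klf6 window 64.2%. These letters did not occur in the Klf6 window and occurred once in each of the Klf2, Klf4 and Klf9 windows. The full element TGACGTCA, which contains the half-site on both strands, was in none of the 6 windows and in 1.44% of all. The GC box GGGCGG, a sequence bound by Sp and Krüppel-like factors, occurred 3 times in the Nr4a2 window, where a pair of matches overlap, 3 times in the Nr4a1 window and 1 time in the Klf6 window. With every match counted, 7.63% of all windows held at least 3 and 31.3% at least 1. The NR4A monomer element AAAGGTCA (420 of all windows), the AP-1 site TGANTCA (6.58%) and the CArG box bound by SRF (1.44%) were in none of these 3 windows. All searches covered both strands. A match describes letters, not a site in use, and binding was not measured.

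On GRCm38 with GENCODE M21, Klf6 lies on chr13:5861482-5870394 (plus strand), Nr4a2 on chr2:57106830-57124003 (minus), Nr4a1 on chr15:101254269-101274795 (plus) and Klf10 on chr15:38291463-38300706 (minus). Klf2 lies on chr8:72319033-72321656 (plus), Klf4 on chr4:55527143-55532466 (minus), Klf5 on chr14:99298691-99315036 (plus) and Klf9 on chr19:23141226-23168134 (plus). The RefSeq start used for the Nr4a1 window, at 101266846, lies inside the GENCODE gene, whose first base is 101254269. The only annotated gene that overlapped a member was the microRNA gene Mir1192 inside Klf9, which had 1 count in all.

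Total counts per library were 1490869 to 2480690, with reads on 13827 to 15468 genes. At that depth 3 counts, taken as the floor, equal 1.21 to 2.01 CPM, which are counts scaled to a fixed library total. Of 7 myoblast markers, Des, Itga7, Cdh15, Myf5 and Myod1 were tested and Msc and Pax7 were near 0 (means of 1.29 and 0.634 CPM). Their summed level was 1344 to 1404 CPM in the 30 s libraries, 1400 to 1424 in those of 3 min, 1406 to 1478 in those of 30 min, 1232 to 1261 with low trypsin, 1338 to 1436 with the cold-active protease and 1237 to 1382 in control. The 7 markers of differentiated muscle, of which Acta1 was the most abundant, summed to 156 to 161 CPM in the 30 s libraries, 147 to 169 in those of 3 min, 120.4 to 152 in those of 30 min, 117 to 145 with low trypsin, 152 to 160.1 with the cold-active protease and 163 to 190.0 in control. All libraries but those of 3 min thus lay below every control library. The 5 immune markers summed to 0.467 to 7.10 CPM and the 5 endothelial markers to 0 to 2.05. The 4 epithelial markers found summed to 177 to 243 CPM, nearly all of it Krt14, with Epcam, Cdh1 and Krt5 near 0. The 4 osteoblast markers found summed to 3.44 to 13.8 CPM, and the adipocyte markers to at most 0.547 CPM. In a bulk sample, fewer cells expressing a transcript and less of it per cell cannot be told apart. Whether the marker sums bear on the members' levels was not tested.

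Among the 8 members, only Klf6 and Nr4a2 were called in the quasi-likelihood F test over all 6 groups, in which 11.5% of tested genes were called (a gene is called where the Benjamini-Hochberg adjusted p of edgeR's test, over all tested genes, is under 0.05). Klf6 had F = 12.5 (edgeR adjusted p = 1.96e-06) and Nr4a2 F = 4.42 (edgeR adjusted p = 0.0221). For the other 6, edgeR adjusted p was 0.301 for Nr4a1, 0.432 for Klf9, 0.547 for Klf4, 0.573 for Klf10, 0.746 for Klf2 and 0.915 for Klf5. The call of Klf6 was kept without each of the 18 libraries in turn. That of Nr4a2 was lost without 30 s replicate 1 (edgeR adjusted p = 0.101), 30 s replicate 3 (0.0743), 30 min replicate 1 (0.0533) or control replicate 2 (0.0546), and with DESeq2 in place of edgeR (adjusted p = 0.0949).

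**Figure D1:**
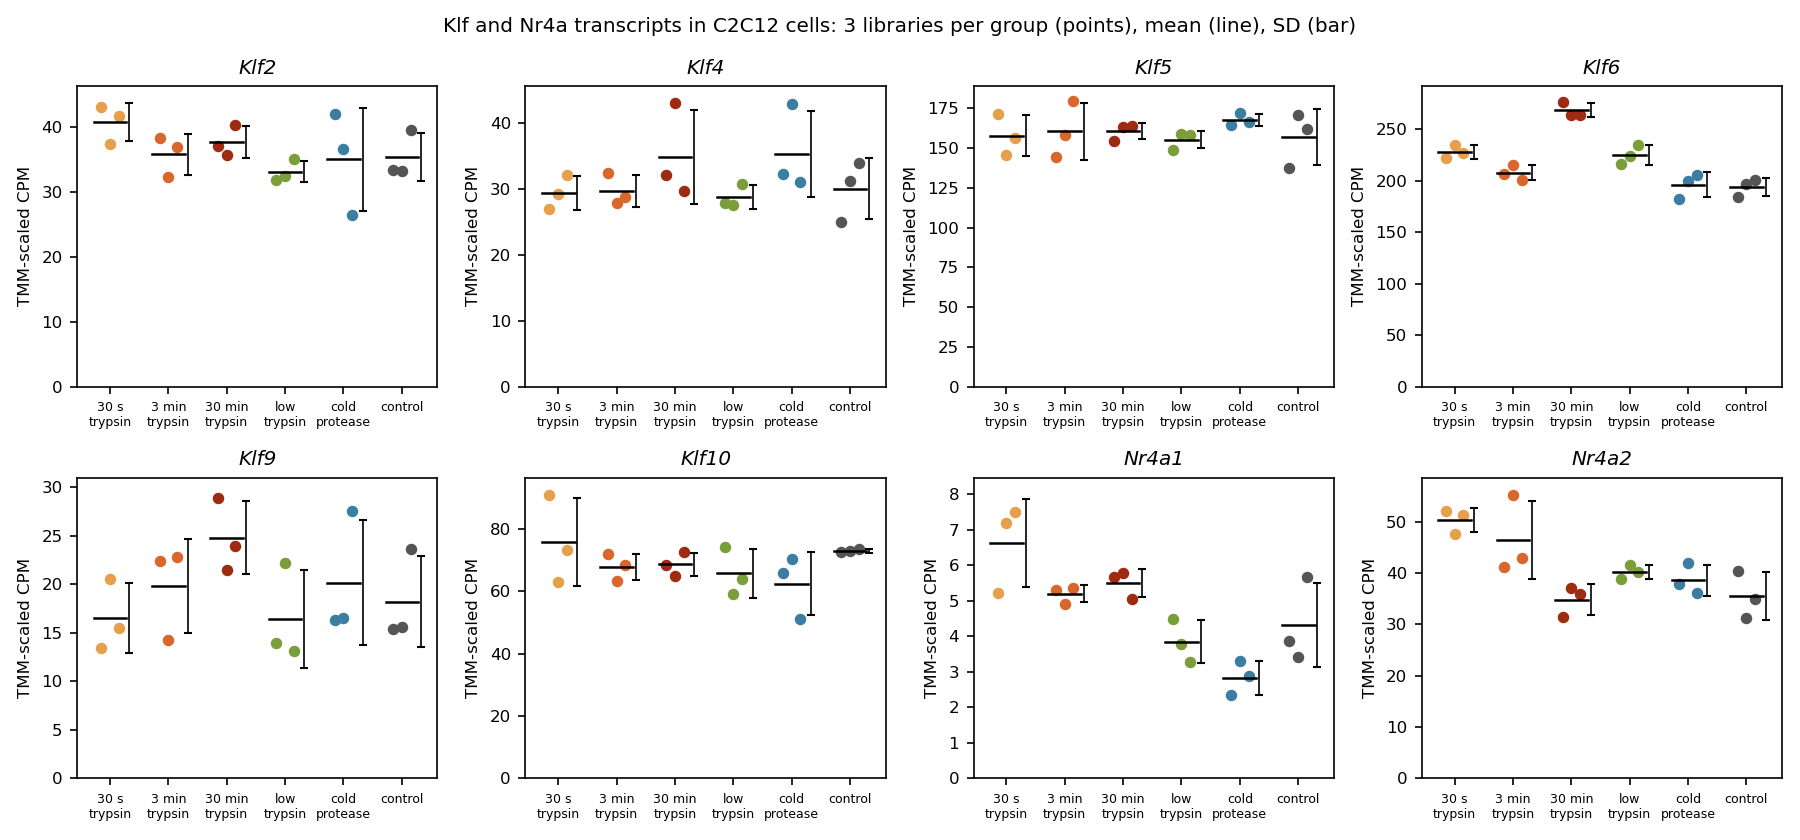
Level of each member in the 18 libraries, in TMM-scaled CPM on a linear axis from 0, by group. Points are libraries, lines the means and bars the SD of 3 libraries; the 3 Klf6 points of 30 min trypsin, 264 to 276 CPM, lie above all others, and the 3 Nr4a2 points of 30 s trypsin, 47.6 to 52.1 CPM, lie above all control points.

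Klf6, a zinc finger activator induced by growth factors and tissue injury, was highest after 30 min in trypsin. Its 3 libraries there had 276, 264 and 264 CPM (TMM-scaled), against 184, 197 and 201 CPM in control. The groups did not overlap, and the lowest 30 min library was above every other library of the series. The log2 fold change was 0.46 ± 0.07 (SE; 1.38-fold, edgeR adjusted p = 3.33e-06), the call was kept without each of the 6 libraries in turn, and the adjusted p stayed between 1.08e-06 and 6.52e-05 under the 8 other settings tried. In the same comparison Acta1, skeletal actin, fell (log2 -0.48 ± 0.12, edgeR adjusted p = 0.00911), the 1 called of 5 tested markers of differentiated muscle, whose list summed to 120.4 to 152 CPM after 30 min and 163 to 190.0 CPM in control. Of 5 tested myoblast markers 1 was called, Myf5, an early myogenic factor, which rose (log2 0.79 ± 0.12, edgeR adjusted p = 4.08e-06). The part of these shifts in the Klf6 result was not tested.

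After 30 s, Klf6 stood at 222, 235 and 226 CPM, again with no overlap with the control libraries. The log2 fold change against control was 0.23 ± 0.07 (edgeR adjusted p = 0.0340). This call depended on every library: edgeR adjusted p was 0.0700, 0.184 and 0.0852 without 30 s replicate 1, 2 or 3, and 0.155, 0.0813 and 0.0524 without control replicate 1, 2 or 3. It was also lost with DESeq2 (adjusted p = 0.0842) and with no filter on low counts (edgeR adjusted p = 0.119).

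With low trypsin, Klf6 had 216, 224 and 235 CPM, all above control, and a log2 difference of 0.21 ± 0.07 that was not called (edgeR adjusted p = 0.0714); with upper-quartile scaling it was (edgeR adjusted p = 0.0435). After 3 min in trypsin the libraries had 206, 215 and 201 CPM, and the difference from control was 0.10 ± 0.07 (edgeR adjusted p = 0.663), although the lowest 3 min library was just above the highest control library. With the cold-active protease, Klf6 had 183, 200.1 and 205 CPM, inside and around the control range. The log2 difference from control there was 0.01, with a 95% interval of -0.13 to 0.15. It lies below the interval of the change after 30 min in trypsin (0.46, 0.32 to 0.60).

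Between treatments, the 30 min level of Klf6 was above that after 3 min by 0.37 ± 0.07 on the log2 scale (edgeR adjusted p = 0.000214), and the cold-active protease level was below the 30 min level by a log2 change of -0.45 ± 0.07 (edgeR adjusted p = 1.19e-05). Both calls were kept without each of their 6 libraries. The 30 min level was also above the 30 s level by 0.24 ± 0.07 (edgeR adjusted p = 0.0258), a call lost without 30 s replicate 1 (0.115), 30 s replicate 3 (0.0775) or 30 min replicate 1 (0.104), and with DESeq2 (0.0550) or no filter on low counts (0.102). Against low trypsin the 30 min difference was 0.25 ± 0.07 (edgeR adjusted p = 0.0199), lost without low trypsin replicate 1 (0.112), low trypsin replicate 2 (0.0629) or 30 min replicate 1 (0.0997), and with no filter (0.0636). The cold-active protease level was below the 30 s level by a log2 change of -0.22 ± 0.07, just past the threshold (edgeR adjusted p = 0.0498). With another processing it was lost in 5 cases: DESeq2 (0.113), no filter (edgeR adjusted p = 0.183), size-factor scaling (0.0518), upper-quartile scaling (0.0588) and removal of the trend over mRNA length (0.0657). Leaving out a library kept that call in 1 of the 6 cases. EdgeR adjusted p was 0.0974, 0.235 and 0.123 without 30 s replicate 1, 2 or 3, and 0.286, 0.0932 and 0.0487 without cold-active protease replicate 1, 2 or 3.

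In descending order of the mean, Klf6 ran 30 min, 30 s, low trypsin, 3 min, cold-active protease, control. After the step from 30 min to 30 s, no pair of neighbours in that order passed the test: the edgeR adjusted p was 0.974 for low trypsin against 30 s, 0.551 for low trypsin against 3 min, 0.747 for the cold-active protease against 3 min and 0.988 for the cold-active protease against control. Over the trypsin time course the means were 228 ± 6.6 CPM at 30 s, 207 ± 7.2 at 3 min and 268 ± 6.8 at 30 min (SD, n = 3 each). The difference between 3 min and 30 s did not pass the test (log2 -0.13 ± 0.07 for 3 min over 30 s, edgeR adjusted p = 0.546).

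Nr4a2, also known as Nurr1 and best known for its part in the development of dopamine neurons, had another time course, with its highest level at 30 s. The 30 s libraries had 52.1, 47.6 and 51.4 CPM, against 40.4, 31.3 and 34.9 CPM in control. The groups did not overlap, and the log2 fold change was 0.52 ± 0.14 (1.43-fold, edgeR adjusted p = 0.0132). The call was lost without control replicate 2 (edgeR adjusted p = 0.129), control replicate 3 (0.0587) or 30 s replicate 1 (0.0747), and with DESeq2 (adjusted p = 0.0547). After 30 s, where both Klf6 and Nr4a2 were called, the differentiated muscle markers summed to 156 to 161 CPM, against 163 to 190.0 CPM in control, and the 5 tested had fitted changes below 0 that did not pass the test (edgeR adjusted p of 0.540 to 0.926). Of the myoblast markers, Myf5 rose there too (log2 0.71 ± 0.12, edgeR adjusted p = 1.4e-05). Myf5 was also called with low trypsin (log2 0.39 ± 0.12, edgeR adjusted p = 0.0481), where edgeR called no member. The part of these markers in the results was not tested either.

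After 3 min in trypsin, Nr4a2 had 41.2, 55.2 and 42.9 CPM, with replicate 2 the highest value of the series. All 3 were above the control libraries, and the log2 difference of 0.41 ± 0.15 was not called (edgeR adjusted p = 0.147, unadjusted p = 0.00896). After 30 min the libraries had 31.4, 37.2 and 35.9 CPM, within the control range. The log2 difference from control was -0.01, with a 95% interval of -0.33 to 0.31. The 30 s estimate of 0.52 lies outside it, but the 95% interval of that estimate, 0.23 to 0.81, overlaps it.

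The 30 min level of Nr4a2 was below the 30 s level by a log2 change of -0.53 ± 0.15 (edgeR adjusted p = 0.0186), with no overlap between the libraries. That call was kept without 30 s replicate 2 or 30 min replicate 2. It was lost without 30 min replicate 1 (edgeR adjusted p = 0.124), 30 min replicate 3 (0.0505), 30 s replicate 1 (0.0908) or 30 s replicate 3 (0.0664), and with DESeq2 (0.0720). Against 3 min, the 30 min level differed by -0.42 ± 0.15 without passing the test (edgeR adjusted p = 0.141).

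With low trypsin Nr4a2 had 38.9, 41.7 and 40.2 CPM, and with the cold-active protease 37.8, 42.0 and 36.2 CPM. Both groups overlapped control, and neither difference was called: 0.19 for low trypsin (95% interval -0.11 to 0.49, edgeR adjusted p = 0.609) and 0.14 for the cold-active protease (-0.16 to 0.44, 0.848). Set against 30 s in trypsin, low trypsin differed by -0.33 and the cold-active protease by -0.38 on the log2 scale, with no overlap in either case, and neither passed the test (edgeR adjusted p = 0.282 and 0.112). The order of the means was 30 s, 3 min, low trypsin, cold-active protease, control, 30 min, and no pair of neighbours in it passed the test, the smallest edgeR adjusted p being 0.597, for low trypsin against 3 min.

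**Figure D2:**
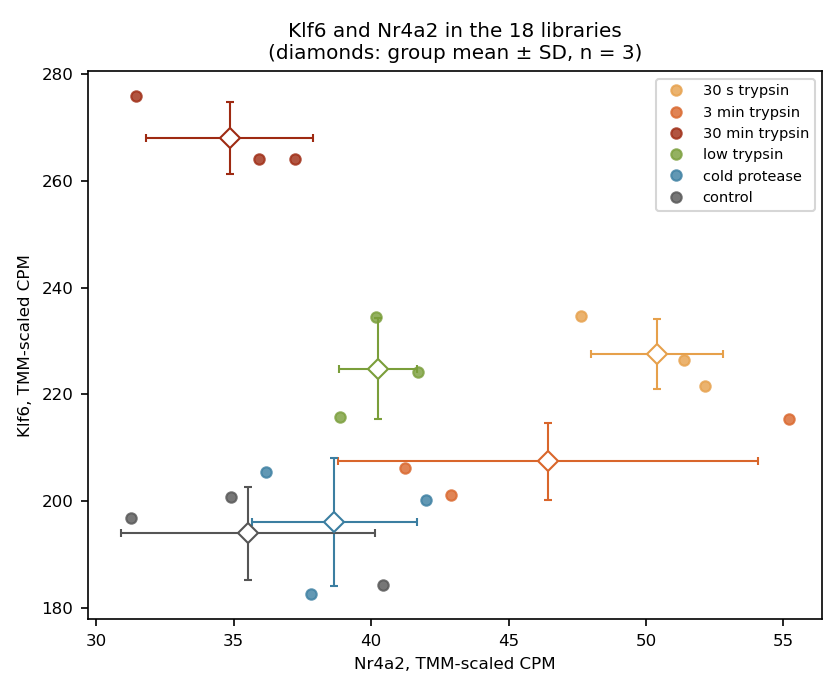
Klf6 (vertical axis) against Nr4a2 (horizontal axis) in TMM-scaled CPM, 1 point per library, with diamonds and bars for the mean and SD of the 3 libraries of a group; neither axis starts at 0. The 30 min libraries sit alone at the top left and the 30 s libraries to the right, while the control and cold-active protease libraries share the lower left.

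Across the 18 libraries Klf6 and Nr4a2 were almost unrelated (Pearson r = -0.0851 of log2 CPM, given as a description of libraries that share groups and depth). Klf6 was at its group maximum where Nr4a2 was at its minimum, after 30 min, and both stood above control after 30 s, as the plot of Klf6 against Nr4a2 shows. The members as a set did not move together: the 28 correlations between pairs lay between -0.49 for Klf9 with Nr4a2 and 0.67 for Klf2 with Klf10. The Klf2 and Klf10 value was nearly the same within groups (0.65), so it followed differences among libraries of 1 group.

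Nr4a1, also known as Nur77, a regulator of glucose and lipid metabolism in muscle, had few reads, 5 to 14 counts in a library, so counting error weighs heavily on its values. It averaged 6.63 ± 1.2 CPM after 30 s, 5.19 ± 0.24 after 3 min, 5.49 ± 0.39 after 30 min, 3.85 ± 0.61 with low trypsin, 2.83 ± 0.48 with the cold-active protease and 4.31 ± 1.2 in control (SD, n = 3 each). The highest mean was after 30 s, as for Nr4a2, and the lowest with the cold-active protease. Against control the log2 difference was 0.58 ± 0.38 after 30 s (edgeR adjusted p = 0.503) and -0.60 ± 0.45 with the cold-active protease (edgeR adjusted p = 0.768), and their 95% intervals, -0.18 to 1.35 and -1.50 to 0.29, allow changes of more than 1 log2 unit.

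The widest gap between treatments for Nr4a1 was that between the cold-active protease and 30 s. The cold-active protease libraries had 2.33, 3.29 and 2.87 CPM and the 30 s libraries 5.21, 7.17 and 7.50 CPM. The groups did not overlap, and the log2 change of -1.18 ± 0.41 missed the threshold (edgeR adjusted p = 0.0767; 0.0772 to 0.239 under the alternatives). Nr4a3, the remaining gene of the family, had 13 counts over the 18 libraries and could not be tested.

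Klf2 and Klf4, known as flow-responsive factors of endothelial cells, and Klf4 also as a reprogramming factor, passed no test. Klf2 averaged 40.7 ± 2.9 CPM after 30 s, 35.8 ± 3.2 after 3 min, 37.7 ± 2.4 after 30 min, 33.1 ± 1.7 with low trypsin, 35.0 ± 7.9 with the cold-active protease and 35.4 ± 3.6 in control. Its values overlapped control in every group, and the 95% interval of the 30 s difference, -0.11 to 0.50 on the log2 scale, was the one reaching furthest from 0 against control. Klf4 averaged 29.4 ± 2.6 CPM after 30 s, 29.7 ± 2.4 after 3 min, 34.9 ± 7.1 after 30 min, 28.8 ± 1.8 with low trypsin, 35.3 ± 6.5 with the cold-active protease and 30.1 ± 4.6 in control. Its 2 highest means each rested on a single library, replicate 2 in both: 43.0 CPM after 30 min and 42.8 CPM with the cold-active protease, where the other libraries of those groups had 29.6 to 32.2 CPM.

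Klf5, a factor of proliferating progenitors that also takes part in myogenic differentiation, was the steadiest member. It averaged 158 ± 13 CPM after 30 s, 161 ± 18 after 3 min, 161 ± 5.3 after 30 min, 155 ± 5.4 with low trypsin, 168 ± 4.0 with the cold-active protease and 157 ± 17 in control. The highest group mean was 1.08-fold the lowest. Its 95% intervals against control, from -0.17 to 0.17 after 30 s to -0.08 to 0.26 with the cold-active protease, exclude changes of more than 0.26 log2 units in any treatment.

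Klf10, also called TIEG1, averaged 75.7 ± 14 CPM after 30 s, 67.9 ± 4.2 after 3 min, 68.7 ± 3.8 after 30 min, 65.7 ± 7.7 with low trypsin, 62.4 ± 10.1 with the cold-active protease and 72.9 ± 0.53 in control. The control libraries lay close together at 72.5 to 73.5 CPM, so the 3 min, 30 min and cold-active protease libraries were all below them, yet no difference passed the test, the largest being -0.21 ± 0.13 with the cold-active protease (edgeR adjusted p = 0.691). Its 30 s libraries spread from 63.0 to 90.8 CPM. Within groups its counts varied 1.87 times as much as sampling alone gives (chi-square per degree of freedom).

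Klf9, which represses through GC-rich elements, averaged 16.5 ± 3.6 CPM after 30 s, 19.8 ± 4.8 after 3 min, 24.8 ± 3.8 after 30 min, 16.4 ± 5.0 with low trypsin, 20.1 ± 6.4 with the cold-active protease and 18.2 ± 4.7 in control. The 30 min libraries, 28.9, 21.5 and 24.0 CPM, were all above the 30 s libraries, 13.5, 20.5 and 15.5 CPM. That log2 difference of 0.59 ± 0.24 was not called (edgeR adjusted p = 0.185), nor was 0.42 ± 0.24 against control (edgeR adjusted p = 0.401). Klf9 had the largest excess spread within groups of the 8, 2.35 times sampling noise. Klf6 (0.683) and Nr4a2 (0.754) varied no more than counting error, as did Nr4a1 (0.27) and Klf2 (0.91), which were not called.

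**Figure D3:**
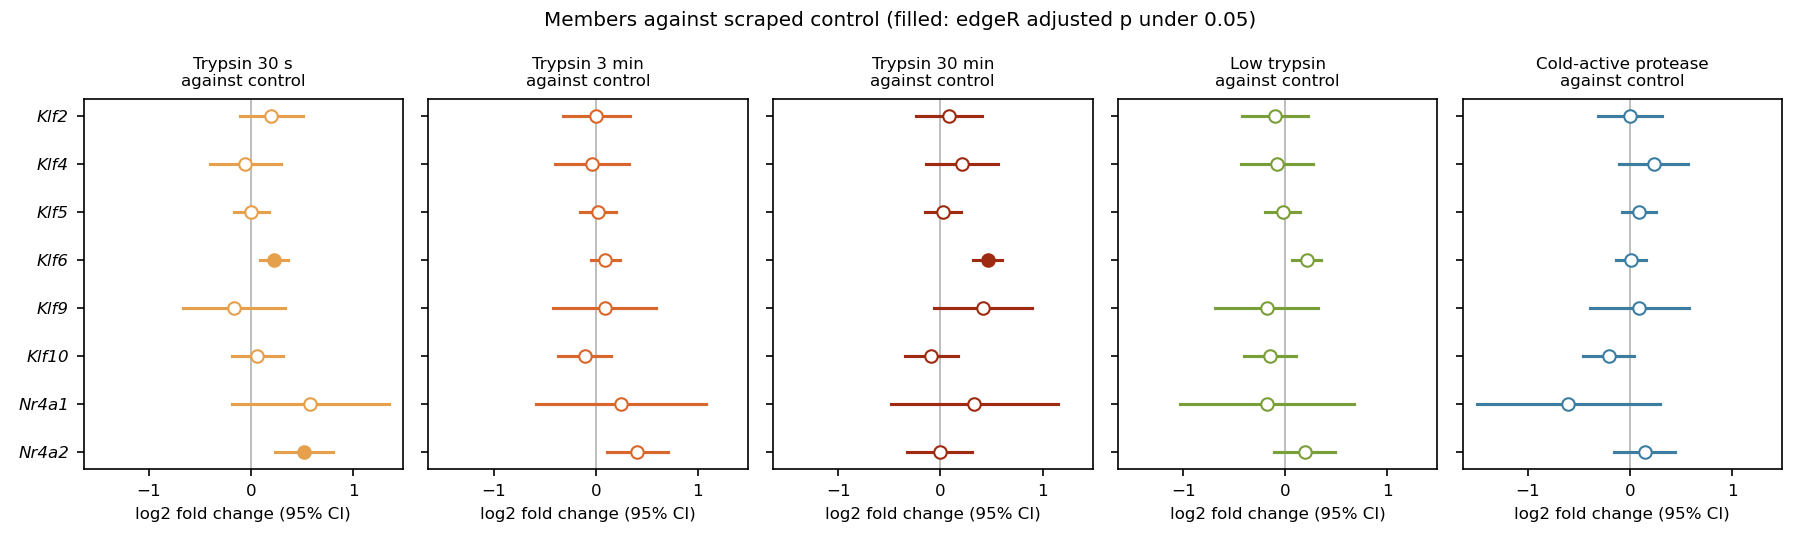
Log2 fold change of each member against control with its 95% interval, in 1 panel per treatment on a shared linear axis; filled points have an edgeR adjusted p under 0.05. Klf6 and Nr4a2 are filled after 30 s and Klf6 after 30 min, and the intervals of Nr4a1 are the widest.

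Counted by comparison, and beside the share of all 10075 tested genes called in each, the members were called as follows. Against control, 2 of 8 were called after 30 s (6.94% of all genes), both higher (3.24% of all genes were called higher), and 1 of 8 after 30 min (4.68%). DESeq2 called 0 of 8 after 30 s and 1 of 8 after 30 min. None was called by edgeR after 3 min (3.96%), with low trypsin (5.19%) or with the cold-active protease (0.665%). In these 3 comparisons 1, 1 and 0 members had an unadjusted p under 0.05, and DESeq2 called 0 in each. The 5 comparisons share the control libraries. The libraries of treatment and control did not overlap for 2 of 8 members after 30 s (21.9% of all tested genes), 3 after 3 min (17.6%), 2 after 30 min (19.5%), 1 with low trypsin (19.6%) and 2 with the cold-active protease (14.1%), so that separation of 3 libraries from 3 was common among all genes.

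The median log2 change of the 8 members was 0.13 after 30 s, 0.05 after 3 min, 0.15 after 30 min, -0.09 with low trypsin and 0.05 with the cold-active protease, where the medians of all tested genes lay between -0.00294 and 0.00906. Individual members ran from -0.17 (Klf9) to 0.58 (Nr4a1) after 30 s and from -0.60 (Nr4a1) to 0.23 (Klf4) with the cold-active protease.

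Between the trypsin times, 1 of 8 was called for 30 min against 3 min (4.03% of all genes) and 2 of 8 for 30 min against 30 s (4.93%). DESeq2 called 1 and 0 in these comparisons. None was called by edgeR or DESeq2 for 3 min against 30 s (1.94%, with 0 at an unadjusted p under 0.05). Low trypsin against 3 min (4.36%) and against 30 s (2.98%) gave 0 calls with either tool, with 0 and 1 members at an unadjusted p under 0.05 in edgeR. All 8 fitted changes of low trypsin against 30 s were below 0, from -0.76 for Nr4a1 to -0.01 for Klf9. For the cold-active protease, 1 of 8 was called against 30 s (5.9%), 1 against 30 min (1.85%), 0 against 3 min (3.7%) and 0 against low trypsin (3.31%). Those last 2 had 0 and 1 members at an unadjusted p under 0.05 and 0 calls with DESeq2. For the cold-active protease DESeq2 called 0 against 30 s and 1 against 30 min. For 30 min against low trypsin 1 of 8 was called (4.15%), and 1 with DESeq2.

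The other Klf, Sp and Nr4a genes gave no call against control. Of 21 such genes 17 were found and 11 tested, 0 were called by edgeR in any of the 5 treatments (1 to 3 per comparison at an unadjusted p under 0.05), and their log2 differences ran from -0.53 for Klf12 to 0.76 for Klf11, both after 30 min. Klf11, a TGF-beta-inducible repressor close to Klf10, averaged 12.6 ± 2.9 CPM after 30 min and 7.29 ± 2.7 in control (SD, n = 3; edgeR adjusted p = 0.207). Sp1, which binds the same GC boxes, had 75.3 ± 3.6 CPM with the cold-active protease. That was lower than the 98.2 ± 6.5 CPM after 3 min in trypsin (log2 -0.38 ± 0.11, edgeR adjusted p = 0.0425) and the 96.9 ± 7.2 CPM with low trypsin (log2 -0.37 ± 0.11, edgeR adjusted p = 0.0491). Sp1 was not called over the 6 groups. Sp3, another GC box factor, was called over the 6 groups (edgeR adjusted p = 0.0291), with 75.1 ± 13, 75.0 ± 13, 72.4 ± 2.8 and 76.2 ± 6.1 CPM after 30 s, 3 min, 30 min and low trypsin, against 57.3 ± 3.0 with the cold-active protease and 59.0 ± 7.0 in control.

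**Figure D4:**
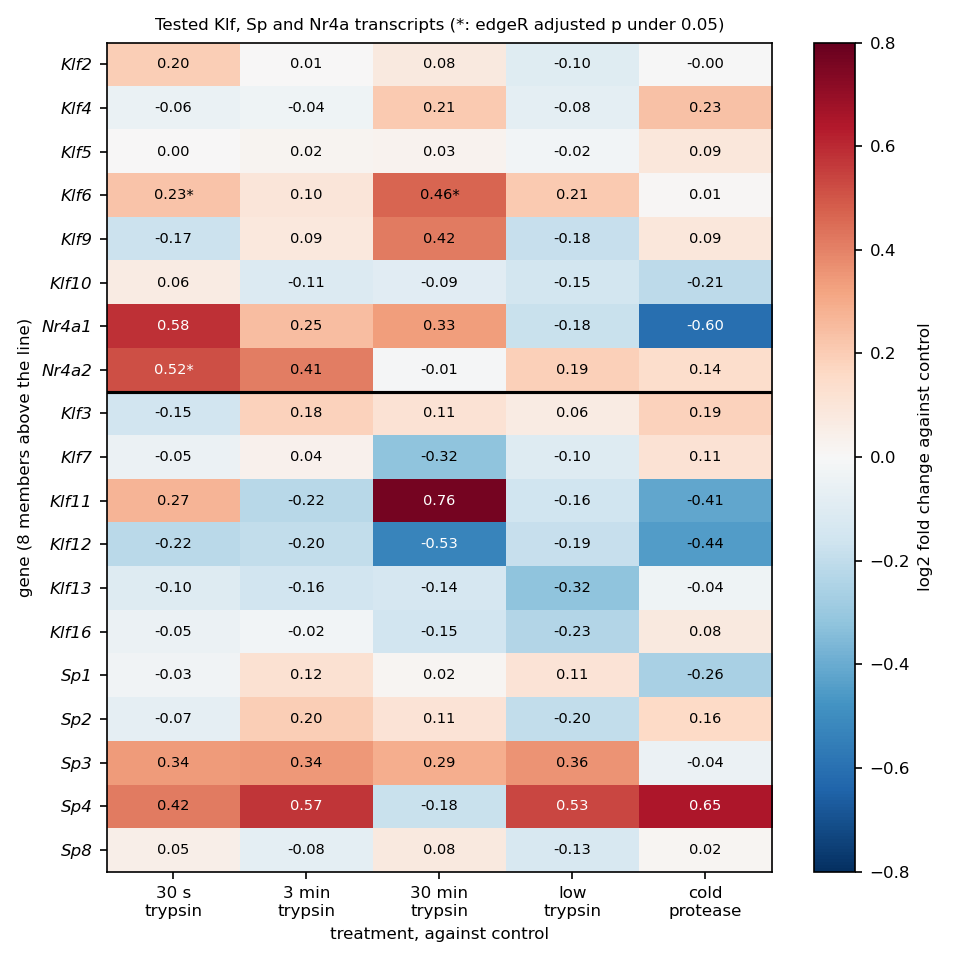
Fitted log2 fold change against control (colour and printed value) for the 8 members, above the line, and the 11 other tested Klf and Sp genes, by treatment; a star marks an edgeR adjusted p under 0.05. Stars stand at Klf6 and Nr4a2 after 30 s and at Klf6 after 30 min only.

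In the arm that runs through CREB, the coactivator Crtc2 changed more than any called member. It averaged 44.6 ± 2.7 CPM after 30 s, 26.3 ± 0.81 after 3 min, 21.0 ± 4.1 after 30 min, 47.9 ± 4.4 with low trypsin, 17.1 ± 4.2 with the cold-active protease and 16.7 ± 2.2 in control. It rose after 30 s (log2 1.42 ± 0.18, edgeR adjusted p = 2.05e-08) and with low trypsin (1.52 ± 0.18, 6.32e-09), the only called gene of the 10 tested in either comparison. Of all tested genes, 6.94 and 5.19% were called there. The Crtc2 level after 30 min was below that after 30 s by a log2 change of -1.07 (edgeR adjusted p = 1.2e-05), as was that of Nr4a2 (-0.53). With low trypsin Nr4a2 was not called. From 30 s to 3 min Crtc2 fell (log2 -0.76 ± 0.17, edgeR adjusted p = 0.00365), where Nr4a2 changed by -0.11 (edgeR adjusted p = 0.895). The activity of the Crtc2 protein was not measured, and a link between the 2 mRNAs was not tested. Crebbp, the CREB-binding acetyltransferase, was higher after 30 min than after 30 s by 0.34 ± 0.09 (edgeR adjusted p = 0.0172), with 128 ± 8.4 and 101 ± 1.8 CPM. Prkacb, a catalytic subunit of protein kinase A, was lower with the cold-active protease than with low trypsin (log2 -0.41 ± 0.12, edgeR adjusted p = 0.0435). Prkacb was not called over the 6 groups.

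The ERK5 and MEF2 arm of Klf2 and Klf4 gave no call against control in edgeR for its 6 tested genes (0 to 2 at an unadjusted p under 0.05 in a comparison). Elsewhere 1 was called. Map3k3, a kinase upstream of ERK5, was lower with the cold-active protease than after 3 min in trypsin (log2 -0.67 ± 0.17, edgeR adjusted p = 0.00700), where 3.7% of all genes were called. Over the 6 groups 0 of these 6 genes were called. Among 13 tested partners and corepressors, 1 was called against control, after 30 s, where 6.94% of all genes were called. It was Sin3a, a scaffold of histone deacetylase complexes that Klf9 and Klf10 recruit. Sin3a fell after 30 s to 16.6 ± 3.3 CPM, against 26.4 ± 0.045 in control (log2 -0.65 ± 0.21, edgeR adjusted p = 0.0396). Over the 6 groups 0 of these 13 genes were called.

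The known inducers of Klf9 and Klf10 were looked at through short lists of genes tied to them. The lists mix genes of the pathway itself with genes that respond to it. Pathway genes were the receptor gene Nr3c1 in the glucocorticoid list and, among others, Smad2, Smad3, Smad4 and Tgfb1 in the TGF-beta list. The activity of the inducers was not measured. Of 6 tested genes of the glucocorticoid list, 1 was called against control, Errfi1, an inhibitor of the EGF receptor. It rose after 30 s (log2 0.40 ± 0.10, edgeR adjusted p = 0.00488), after 3 min (0.46 ± 0.10, 0.00178) and with low trypsin (0.80 ± 0.10, 1.54e-08). Of 9 tested genes of the TGF-beta list, 1 was called, Skil, a repressor of SMAD signalling. It rose after 30 s (log2 0.67 ± 0.13, edgeR adjusted p = 0.000123) and after 3 min (0.51 ± 0.13, 0.0128), the times at which Klf10 averaged 75.7 ± 14 and 67.9 ± 4.2 CPM against 72.9 ± 0.53 in control. Of all tested genes, 6.94% were called against control after 30 s, 3.96% after 3 min and 5.19% with low trypsin.

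After 30 s, 3 min, 30 min, low trypsin and the cold-active protease, 6.94, 3.96, 4.68, 5.19 and 0.665% of all tested genes were called against control. Of the 8 members 2, 0, 1, 0 and 0 were called (25, 0, 12.5, 0 and 0%), and 0, 0, 1, 0 and 0 with DESeq2. Of a list of 19 tested immediate early genes of other families, 5, 2, 6, 4 and 0 were called (26.3, 10.5, 31.6, 21.1 and 0%). Of these, 4, 2, 4, 4 and 0 were higher than control and 1, 0, 2, 0 and 0 lower. The members and this list were chosen with earlier results of these data known, so these shares are a description only. The Notch target Hes1, the largest riser of that list after 30 min (log2 2.58 ± 0.10, edgeR adjusted p = 1.83e-26), was also the gene whose pattern over the 18 libraries was most like that of Klf6 (Pearson r = 0.88 of log2 CPM, the highest of 989 genes called over the 6 groups with a mean of at least 10 CPM). It averaged 84.7 ± 5.2 CPM after 30 s, 84.0 ± 8.6 after 3 min, 319.7 ± 25 after 30 min, 77.2 ± 6.0 with low trypsin, 57.9 ± 7.4 with the cold-active protease and 52.8 ± 8.7 in control. Hes1 was called against control after 30 s, 3 min and low trypsin too, where Klf6 was called only after 30 s. Ddit4, an inhibitor of mTORC1 signalling (r = 0.83), and Rabggtb, a subunit of Rab geranylgeranyl transferase (r = 0.83), came next. They averaged 113 ± 17 and 191 ± 6.4 CPM after 30 min and 61.9 ± 3.4 and 121 ± 8.7 CPM in control.

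For Nr4a2 the most similar patterns were those of the mitochondrial glutamate carrier Slc25a22 (r = 0.84), Sipa1l1, a GTPase-activating protein for Rap (r = 0.78), and the glycolytic enzyme Hk2 (r = 0.77). Slc25a22 averaged 24.3 ± 1.1 CPM after 30 s, 15.3 ± 0.91 after 30 min and 14.0 ± 2.5 in control. Hk2 averaged 49.1 ± 1.5 CPM after 30 s, 33.2 ± 8.0 after 30 min and 30.6 ± 4.3 in control. These likenesses are over libraries of the same 6 groups, and the genes were picked from those called among the groups. They describe similar group levels, not the same order of groups. Slc25a22, Sipa1l1 and Hk2 had their lowest mean in control, whereas Nr4a2 had its lowest after 30 min. Rabggtb stood higher with low trypsin (148 ± 14 CPM) than after 30 s (134 ± 7.9 CPM), where the Klf6 means ran the other way.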

How the data were processed

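The submitters' processing notes name HISAT2 2.1.0 and featureCounts 2.0.1, with UMI-tools 1.0.1 and the trimmers cutadapt 2.6 and Trim Galore 0.6.6, on GRCm38. Whether counting used strand, and how reads with several matches were treated, is not given in the sources used here. Deposited gene counts, whole numbers, entered every test. A deposited table named as TPM equalled CPM of those counts, and a deposited normalized signal equalled counts divided by a size factor. Neither entered a test.

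Counts of all 18 libraries were fitted together in edgeR 4.0.16 (R 4.3.3) with TMM scaling, filterByExpr by group and quasi-likelihood F tests, without covariates. P-values were adjusted by Benjamini-Hochberg over the 10075 tested genes of each comparison, and genes under 0.05 were called. An edgeR adjusted p is from this fit. The procedure was tested on simulated data. An exact permutation test of 3 against 3 libraries cannot go below 0.10, so calls rest on the model. Levels are TMM-scaled CPM, with no division by transcript length. The members were not ranked against each other by level. Intervals cover 95%. Floors cover counting error only. Correlations used log2 CPM with a prior count of 2.

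The members, gene lists and the rule for named genes were chosen with earlier results of these data known. The rule covered all 8 members, the 3 genes most like each member called over the 6 groups, and called genes of the lists, of which those beside a member's own arm are given. Of the 15 pairs of groups, 6 were added after the data were seen. The alternatives were other scaling, other filters, DESeq2 1.42.0, the 2 groups alone, a replicate block, each library left out and, added after the data were seen, removal of the trend over mRNA length. Gene positions came from GENCODE M21 and promoter windows from RefSeq (GRCm38.p6). Positions are 1-based.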

Additional observations from a re-analysis of the deposited data

How the results depend on the processing

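Each of 128 values for the members (a fold change per comparison, or an F) was recomputed under scaling, filter, DESeq2, replicate block, pair-only, length-trend and leave-one-out alternatives, 1853 values in all. Of these, 1811 kept their side of the threshold and, where called, their direction. In 41 a call was lost, in 1 a call was gained and in 0 a called value changed sign. All 42 concerned Klf6 or Nr4a2 and stand beside the results. Of values not called, 83 changed sign. With a replicate block, 688 genes were called for 30 s against control (699 without it), and Klf6 (edgeR adjusted p = 0.0313) and Nr4a2 (0.0152) stayed called. Same-numbered libraries showed little shared deviation (mean r = 0.00186, 0 of 45 pairs over 0.1), beside a mean r of -0.000925 for other pairs. Of 18 libraries, 9 correlated best with their own number. Counting noise pulls such correlations towards 0, so these values cannot decide whether the numbers pair the samples. The block ended no call of a member.

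Some counts over all genes moved by more than 1.5 times with DESeq2: 41 for the cold-active protease against control (67 in edgeR), 119 for it against 30 min (186), 217 for it against low trypsin (333), and 272 for 30 min against low trypsin (418). Leaving out 1 library gave 35 to 54, 118 to 168, 206 to 283 and 277 to 369 genes for these 4, and 304 to 394 (472 with all) for 30 min against control. The lowest of each of these ranges was also a move of more than 1.5 times. The counts of Nr4a1, 5 to 14 per library, limit what could be seen of it.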
